A study of Homo sapiens with 30 samples.

Results

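The MYC, MAX and MXD network was described here through 10 genes, MYC, MYCL, MAX, MXD1, MXD3, MXD4, MXI1, MNT, MLX and MGA, matched by gene symbol among the 60617 genes of the deposited tables. RNA was sequenced from 2 human colorectal cancer lines, HCT116 and SW480, 48 h after transfection with 10 nM of a small interfering RNA (siRNA), a short duplex that directs cleavage of its matching transcript. Each line received siBRD8-6 or siBRD8-36 against BRD8, siTIP60-2 or siTIP60-11 against TIP60 (gene symbol KAT5), or a control siRNA (siControl), with 3 libraries in each of the 10 groups. BRD8 and TIP60 are subunits of the TIP60 complex, which acetylates histones and exchanges histone variants in chromatin, and MYC is known to recruit that complex to promoters. Both lines are established tumour lines, so that each stands for 1 tumour, and no library came from untransfected cells. Nothing in the labels says that the 3 libraries of a group came from separate cultures, so the p-values measure only the spread between these libraries, which may be technical. In bulk RNA, a change in the share of cells and a change in RNA per cell cannot be told apart.

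The network turns on MAX, a small basic helix-loop-helix leucine zipper protein that pairs with the MYC, MXD, MNT and MGA proteins. MYC and MYCL pair with MAX and activate transcription at E-boxes, of which CACGTG is the preferred form. The MXD proteins (MXD1, MXD3, MXD4 and MXI1) and MNT compete for MAX at the same sites and recruit the SIN3 corepressor. MLX is a second, MAX-like hub that pairs with some MXD proteins, with MNT and with the glucose-sensing factors MLXIP and MLXIPL. MGA, a very large protein with a second DNA-binding domain, pairs with MAX inside the repressive Polycomb complex PRC1.6. In colorectal cancer, MYC is a known target of Wnt signalling, which is constitutively active in both lines. On GRCh38 (GENCODE 29) the members other than MYC lie at chr1:39895426-39902256 (MYCL, minus strand), chr14:65006174-65102695 (MAX, minus), chr2:69897688-69942945 (MXD1, plus) and chr5:177301461-177312757 (MXD3, minus). MXD4 lies at chr4:2247432-2262294 (minus), MXI1 at chr10:110207605-110287365 (plus), MNT at chr17:2384060-2401118 (minus), MLX at chr17:42567068-42573239 (plus) and MGA at chr15:41621224-41773081 (plus).

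The promoter window from 250 bases before to 50 bases after the RefSeq start site held the E-box CACGTG in 3 of the 9 members matched in the RefSeq table (GRCh38.p14), namely MXD4, MNT and MLX, beside 8.77% of 27305 genes with at least 1 such window. The motif reads the same on both strands, and a match is a description of letters, not of a bound site. The 250 bases before each of the 3 start sites are given because these 3 members can themselves carry the sequence that the network binds, with the E-box in capitals. The E-box lay at positions −238 to −233 from the start site of MXD4, −193 to −188 of MNT and −50 to −45 of MLX. The windows are chr4:2262110-2262359 for MXD4 on the minus strand, chr17:2401061-2401310 for MNT on the minus strand and chr17:42566850-42567099 for MLX on the plus strand.
MXD4: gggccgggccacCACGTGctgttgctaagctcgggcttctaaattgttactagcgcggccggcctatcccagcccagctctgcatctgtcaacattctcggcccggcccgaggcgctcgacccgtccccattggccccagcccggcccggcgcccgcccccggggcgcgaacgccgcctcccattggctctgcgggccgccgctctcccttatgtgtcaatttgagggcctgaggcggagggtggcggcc
MNT: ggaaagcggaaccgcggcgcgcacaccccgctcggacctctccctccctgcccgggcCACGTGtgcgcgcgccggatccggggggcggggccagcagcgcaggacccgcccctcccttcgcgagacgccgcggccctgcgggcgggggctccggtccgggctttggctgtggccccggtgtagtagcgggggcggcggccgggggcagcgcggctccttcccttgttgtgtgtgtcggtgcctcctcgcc
MLX: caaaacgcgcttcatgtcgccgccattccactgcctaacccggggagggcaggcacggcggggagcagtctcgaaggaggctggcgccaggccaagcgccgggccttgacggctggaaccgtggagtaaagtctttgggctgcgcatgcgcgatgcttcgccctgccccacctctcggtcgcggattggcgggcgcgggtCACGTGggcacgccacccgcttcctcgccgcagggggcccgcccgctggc

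Summed gene counts per library ran from 13.4 to 18.6 M in HCT116 and from 7.07 to 11.7 M in SW480, whose 3 controls held 7.07 to 7.69 M. BRD8 mRNA in CPM, gene counts scaled to library depth, fell to 14.1 to 20.8% of control with the BRD8 siRNAs in HCT116 and to 22.4 to 25.3% in SW480. KAT5 fell to 7.34 to 9.83% with the TIP60 siRNAs in HCT116 and to 8.16 to 13.97% in SW480. siBRD8-36 also lowered KAT5, to 79.9% of control in HCT116 and 79.3% in SW480. HCT116 siControl replicate 2 stood apart from its 2 fellow control libraries, and the counts of members and of MYC-induced genes are therefore also given without it.

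Summed levels of the cell type markers were not alike in all groups, and their part in the results below was not tested. The 5 epithelial markers (EPCAM, CDH1, KRT8, KRT18 and KRT19) summed to 5768 to 6101 CPM with siBRD8-6, 7087 to 7683 with siBRD8-36, 6096 to 6356 with siTIP60-2 and 6082 to 6365 with siTIP60-11 in HCT116, all above the 3468 to 4089 CPM of its controls. In SW480 they summed to 4977 to 5565, 5463 to 5759, 3765 to 3975 and 4162 to 4675 CPM for the same siRNAs, against 3899.7 to 4012 CPM in controls, and CDH1 was at 6.34 to 22.5 CPM there. The 3 intestinal markers (CDX1, CDX2 and VIL1) summed to 16.7 to 20.2 CPM over the siRNA libraries of HCT116, against 16.4 to 18.3 CPM in controls, with CDX1 at most 0.122 CPM and VIL1 at 0 to 0.410 CPM. In SW480 the intestinal sum was higher with every siRNA, at 50.7 to 57.6, 31.9 to 37.1, 32.3 to 34.7 and 51.7 to 55.4 CPM, against 16.3 to 18.9 CPM in controls. The 5 fibroblast markers, most of whose sum was COL1A1 in HCT116 (18.9 to 69.7 CPM), summed to 30.6 to 37.8, 57.3 to 71.4, 24.9 to 26.8 and 28.1 to 29.8 CPM there, against 19.8 to 22.3 CPM in controls. In SW480 that sum was 13.9 to 17.0, 5.37 to 6.56, 7.39 to 8.51 and 10.0 to 10.7 CPM, against 7.73 to 8.35 CPM in controls, with PDGFRB up to 6.45 CPM. The 5 leukocyte markers summed to 0.427 to 3.34 CPM with the siRNAs in HCT116, mostly LYZ, against 0.231 to 0.392 CPM in controls, and LYZ reached 1.79 CPM in SW480. The 3 endothelial markers summed to at most 2.35 CPM. PTPRC, DCN, LUM and CDH5, which define leukocytes, fibroblasts and endothelium, were at most 0.137 CPM, and CDH5 was at 0 in every library.

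In control cells the lines differed in their sets of MXD repressors. The largest difference was MXD1, an antagonist known to rise when epithelial and myeloid cells differentiate, at 6.94, 6.69 and 8.48 CPM in HCT116 controls, against 84.8, 81.7 and 81.8 CPM in SW480 controls. The groups did not overlap, and the fit put HCT116 lower by −3.49 ± 0.10 on the log2 scale (SE, n = 3 each, adjusted p = 4.0e-26 by edgeR's quasi-likelihood test). MXD4 ran the other way, at 35.8, 43.9 and 34.2 CPM in HCT116 controls, against 8.87, 10.1 and 7.01 CPM in SW480 controls, a difference of 2.12 ± 0.11 (adjusted p = 5.65e-18). MXI1 was likewise higher in HCT116, at 56.4 ± 2.6 CPM in HCT116 controls and 16.1 ± 1.8 CPM in SW480 controls (SD, n = 3 each, log2 difference 1.80 ± 0.10). MXD3 averaged 15.4 ± 1.2 CPM in HCT116 controls and 6.10 ± 0.83 CPM in SW480 controls, and MAX averaged 45.0 ± 3.5 and 69.5 ± 0.7 CPM in those same groups. Between these control groups 78.5% of the 17411 genes tested passed an adjusted p of 0.05, so a difference as such was the common case. MNT (0.06 ± 0.08) and MLX (0.12 ± 0.06) did not pass. MYC averaged 391 ± 18 CPM in HCT116 controls and 411 ± 12 CPM in SW480 controls (−0.07 ± 0.05, adjusted p = 0.237), and its sign depended on the scaling, with −0.17 under DESeq2's size factors (adjusted p = 0.00434) and 0.20 in TPM, the deposited abundance scaled for transcript length and depth. The MYC difference passed under 22 of 37 alternatives. MYCL (0.46 ± 0.14) and MGA (0.28 ± 0.11) passed, but MYCL did not without SW480 siControl replicate 1 or 3 (adjusted p = 0.087 and 0.0796), and MGA did not under 23 of 37 alternatives.

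MYC rose most with the TIP60 siRNAs in HCT116. Its CPM there were 1368, 1359.7 and 1383 with siTIP60-2 and 1329, 1367 and 1324 with siTIP60-11, against 371, 405 and 398 with siControl. The ranges of both TIP60 siRNAs overlapped each other and lay far above every other HCT116 group. The mean log2 fold change over both siRNAs was 1.80 ± 0.06 (adjusted p = 2.65e-13). That corresponds to 3.50 times the control mean with siTIP60-2 and 3.42 times with siTIP60-11. In SW480 the rise was smaller, with 634, 619.8 and 641 CPM for siTIP60-2 and 626, 629 and 662 CPM for siTIP60-11, against 399.7, 409.9 and 423 CPM for siControl. No library overlapped the controls, and the fold change was 0.60 ± 0.05 (adjusted p = 2.65e-09). The TIP60 response of MYC was 1.16 ± 0.07 larger in HCT116 than in SW480 (adjusted p = 4.33e-15 for the interaction). Such a difference was tested on the mean of both siRNAs, without requiring that both move the same way. Of the 10 members, 7 passed for such a difference in the TIP60 response, beside 31.1% of genes, and 3 in the BRD8 response, beside 34.4%. The BRD8 count was 6 without SW480 siTIP60-11 replicate 1, and 5 without SW480 siControl replicate 3 or HCT116 siBRD8-36 replicate 2.

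With the BRD8 siRNAs MYC rose modestly in HCT116, and in SW480 the 2 siRNAs took it in opposite directions. In HCT116 the libraries stood at 495, 482 and 490.4 CPM with siBRD8-6 and at 503, 441 and 534 CPM with siBRD8-36, all above the 3 controls, and the fold change was 0.33 ± 0.05 (adjusted p = 0.000401). In SW480 siBRD8-6 gave 305, 299 and 333 CPM, below every control, whereas siBRD8-36 gave 739, 705 and 689 CPM, above every control and above both TIP60 groups. The log2 fold changes were −0.44 ± 0.05 for siBRD8-6 and 0.71 ± 0.05 for siBRD8-36, and the siRNAs differed from each other by −1.15 ± 0.05 (adjusted p = 3.16e-16). Both lowered BRD8 itself to a similar level there, 13.2 ± 1.0 CPM with siBRD8-6 and 11.7 ± 0.6 CPM with siBRD8-36, against 52.2 ± 3.7 CPM in controls. KAT5 averaged 40.9 ± 2.0 CPM with siBRD8-6 and 29.98 ± 1.09 CPM with siBRD8-36, against 37.8 ± 1.9 CPM in controls, and its part in the difference was not tested. No effect of BRD8 depletion on MYC was therefore called in SW480. The order of mean MYC levels in HCT116 was siControl, siBRD8-6, siBRD8-36, siTIP60-11 and siTIP60-2, and both pairs of siRNAs to 1 target overlapped in range. In SW480 it was siBRD8-6, siControl, siTIP60-2, siTIP60-11 and siBRD8-36, with only the TIP60 groups overlapping.

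**Figure D1:**
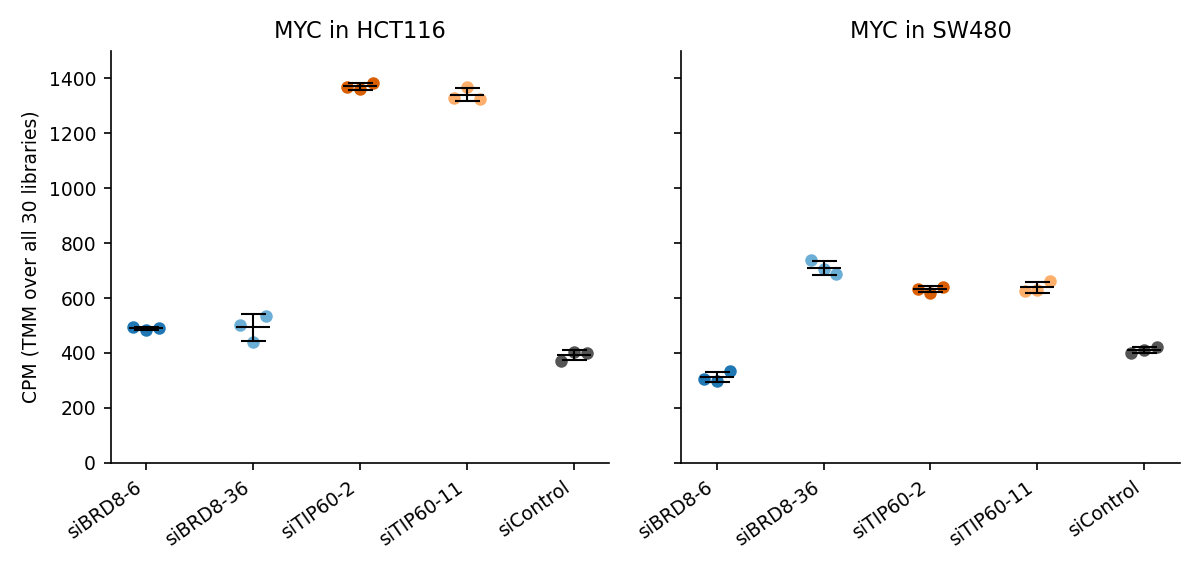
MYC mRNA in CPM in each of the 30 libraries, by siRNA and line. Points are libraries and bars the mean ± SD of 3. In HCT116 both TIP60 groups lie at 1324 to 1383 CPM against 371 to 405 CPM in controls, and in SW480 the BRD8 siRNAs lie on opposite sides of the controls.

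MYCL, the paralogue first found in small cell lung cancer, was a minor species that moved against MYC in HCT116. It stood at 9.80, 9.70 and 9.76 CPM with siBRD8-6, 8.67, 7.86 and 7.22 CPM with siBRD8-36, 9.10, 9.83 and 9.64 CPM with siTIP60-2 and 9.50, 8.57 and 7.01 CPM with siTIP60-11, against 13.5, 14.99 and 15.9 CPM with siControl. All 12 libraries with a BRD8 or TIP60 siRNA were below all 3 controls. The fold changes were −0.74 ± 0.09 for BRD8 (adjusted p = 0.000304) and −0.72 ± 0.09 for TIP60 (adjusted p = 0.000157). In SW480 only siBRD8-36 (−0.95 ± 0.17) and siTIP60-11 (−1.04 ± 0.17) passed, while siBRD8-6 (−0.16 ± 0.16) and siTIP60-2 (−0.20 ± 0.16) did not, so neither target was called there. The pair of siRNAs differed in SW480 by 0.78 ± 0.16 for BRD8 (adjusted p = 0.000222) and 0.84 ± 0.17 for TIP60 (adjusted p = 0.000182). In TPM MYC exceeded MYCL by 208 ± 13 times with siTIP60-2 and 237 ± 28 times with siTIP60-11 in HCT116, against 37.9 ± 2.2 times in controls.

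A member was called for a target when both siRNAs moved it the same way and the larger of their p-values, adjusted over all genes, was under 0.05. All 10 members passed the filter on low counts in both lines. With the BRD8 siRNAs in HCT116, 6 of 10 members were called, 4 higher and 2 lower, beside 24.4% of the 15919 genes tested. With the TIP60 siRNAs in HCT116, 4 were called, 2 higher and 2 lower, beside 27.9%. The same counts in each direction stood without HCT116 siControl replicate 2. In SW480, 4 members were called with the BRD8 siRNAs, 3 higher and 1 lower, beside 26.9% of 15277 genes, and 5 with the TIP60 siRNAs, 2 higher and 3 lower, beside 23.6%. The SW480 count for BRD8 was 2 without siControl replicate 1 and 2 without siControl replicate 2. The median of the 10 fold changes was 0.13 for BRD8 and 0.21 for TIP60 in HCT116 and 0.03 and −0.09 for the same targets in SW480, with medians of all genes between −0.03 and 0.01. The BRD8 and TIP60 comparisons within a line share the control libraries. All 6 siRNA libraries lay beyond all 3 controls for 5 members with BRD8 and 4 with TIP60 in HCT116, beside 29.4% and 33.5% of genes, and for 4 and 6 members in SW480, beside 35.3% and 34.4%. For a single siRNA against control, 49.8 to 58.3% of genes passed in HCT116 (50.5% for siBRD8-6, 58.3% for siBRD8-36, 49.8% for siTIP60-2 and 53.6% for siTIP60-11). In SW480 the shares for the same siRNAs were 52.1%, 56.8%, 49.5% and 47.6%. Between the siRNAs to 1 target, 56.7% passed for BRD8 and 46% for TIP60 in HCT116, and 52.8% and 45.3% in SW480. CPM were scaled over all 30 libraries and fold changes within each line, and a fit of all 30 libraries put the median gene of SW480 at 0.06 for BRD8 and 0.05 for TIP60.

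**Figure D2:**
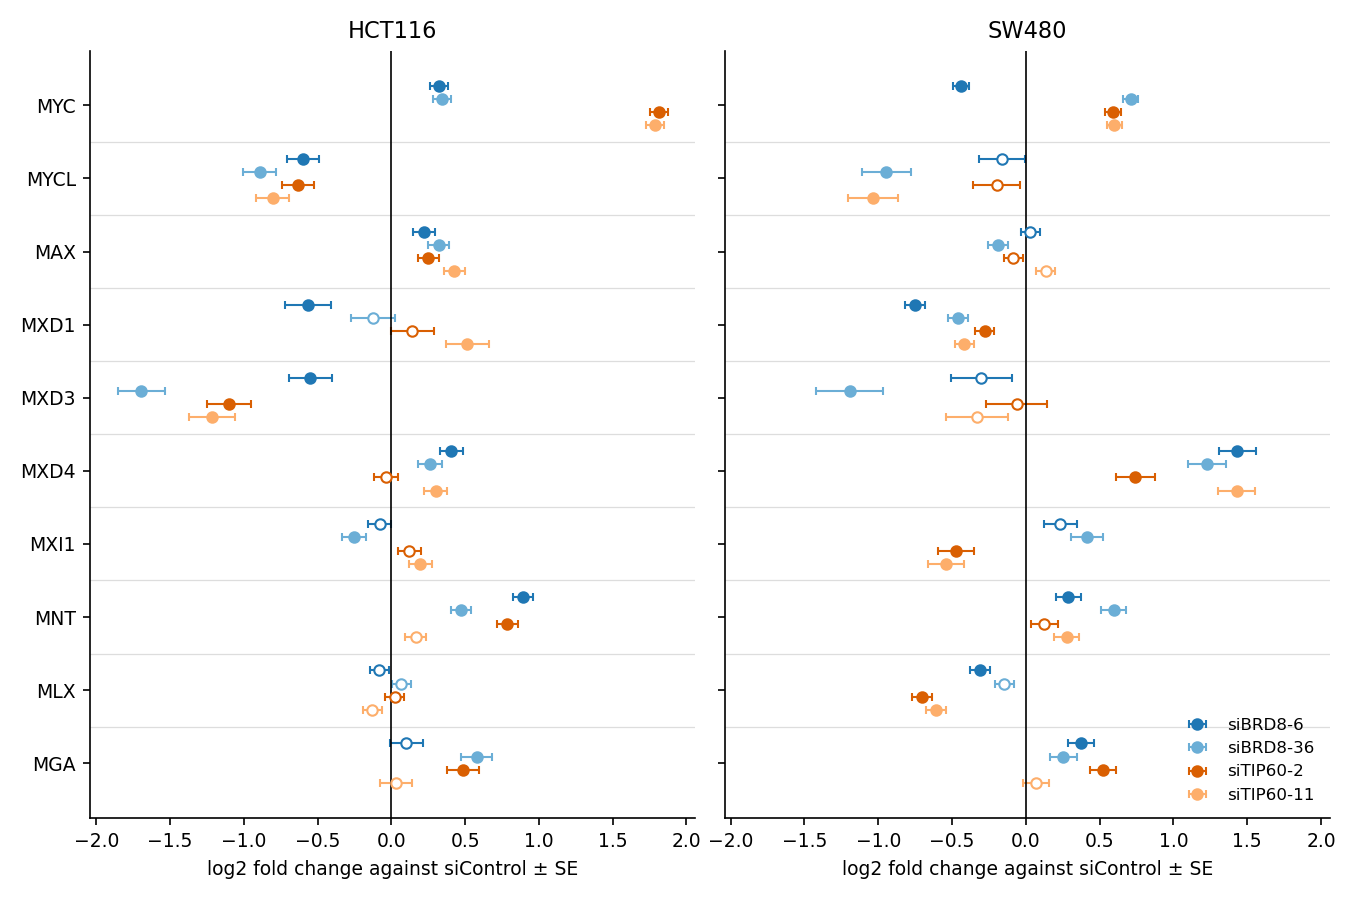
Log2 fold change of each member against siControl ± SE, for each of the 4 siRNAs, in HCT116 and SW480. Filled points had an adjusted p under 0.05 for that siRNA alone. MYC reaches 1.79 to 1.81 with the TIP60 siRNAs in HCT116, and MXD4 0.74 to 1.43 with all 4 siRNAs in SW480.

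MAX, the obligate partner, averaged 52.3 ± 2.3 CPM with siBRD8-6, 55.6 ± 4.3 with siBRD8-36, 53.3 ± 2.1 with siTIP60-2 and 59.9 ± 3.7 with siTIP60-11 in HCT116, against 45.0 ± 3.5 in controls. The fold changes of 0.27 ± 0.06 for BRD8 (adjusted p = 0.0296) and 0.34 ± 0.06 for TIP60 (adjusted p = 0.0125) passed narrowly. The BRD8 call ended without siControl replicate 1, siBRD8-6 replicate 1 or siBRD8-6 replicate 3 (adjusted p = 0.178, 0.0966 and 0.0935), in a fit of only the 9 libraries compared (0.0708) and in TPM (0.415). The TIP60 call ended without siControl replicate 1 or siTIP60-2 replicate 2 (adjusted p = 0.0764 and 0.0603) and in TPM (0.518). In SW480 MAX averaged 64.5 to 78.1 CPM over the 4 siRNA groups, against 69.5 ± 0.7 CPM in controls, and neither target was called. Over whole gene spans, introns included, MAX overlaps FNTB by 56479 bases and CHURC1-FNTB by 55630 bases on the opposite strand. Overlap of exons was not computed. Where exons do overlap, reads could not be told apart without strand.

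MXD4 rose more than any other repressor did with either target, in the line where its control level was low. In SW480 its CPM were 23.4, 23.4 and 25.7 with siBRD8-6, 21.0, 23.7 and 20.1 with siBRD8-36, 13.6, 14.3 and 16.6 with siTIP60-2 and 22.3, 24.2 and 25.4 with siTIP60-11, against 8.87, 10.1 and 7.01 with siControl. All 12 libraries were above all 3 controls, siTIP60-2 was the lowest of the 4 groups, and the other 3 groups overlapped. The fold changes were 1.33 ± 0.11 for BRD8 (adjusted p = 1.66e-08) and 1.09 ± 0.12 for TIP60 (adjusted p = 0.000107), and both held in every alternative run. In HCT116 MXD4 averaged 50.01 ± 0.72 CPM with siBRD8-6 and 45.0 ± 1.9 CPM with siBRD8-36, against 38.0 ± 5.2 CPM in controls, where 1 library stood at 43.9. That rise of 0.33 ± 0.07 was called (adjusted p = 0.0198), but not without siControl replicate 1, siControl replicate 3 or siBRD8-36 replicate 3 (adjusted p = 0.113, 0.116 and 0.0813) or in TPM (0.228). The TIP60 siRNAs split in HCT116, with −0.04 ± 0.08 for siTIP60-2 and 0.30 ± 0.08 for siTIP60-11. The windows of MXD4, MNT and MLX, printed above, held the E-box, and MLX fell with the TIP60 siRNAs in SW480. A link between the motif and these changes was not tested.

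MXI1, the MXD member named for its interaction with MAX, separated the 2 targets in SW480. It stood at 12.3, 10.7 and 12.5 CPM with siTIP60-2 and 11.3, 11.8 and 11.0 CPM with siTIP60-11, against 18.1, 15.6 and 14.6 CPM with siControl. All 6 TIP60 libraries were below the controls, with a fold change of −0.51 ± 0.10 (adjusted p = 0.00376). With siBRD8-6 it was at 16.6, 20.7 and 21.2 CPM and with siBRD8-36 at 22.1, 22.4 and 23.8 CPM, a fold change of 0.33 ± 0.10 that did not pass (adjusted p = 0.139). It did pass on total counts (0.0262), in TPM (0.00198) and without siBRD8-6 replicate 1 (0.0349). BRD8 against TIP60 siRNAs in SW480 differed by 0.83 ± 0.08 (adjusted p = 6.91e-10). In HCT116 the same difference had the opposite sign, −0.32 ± 0.06 (adjusted p = 4.66e-05), and neither target was called against control (−0.17 ± 0.07 for BRD8 and 0.16 ± 0.07 for TIP60). The fall with TIP60 in SW480 did not pass in TPM (−0.15, adjusted p = 1). In TPM the median gene of SW480 stood at 0.18 for the same target.

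MXD1 fell in SW480, where it was the most abundant repressor. Its CPM were 53.2, 49.8 and 49.6 with siBRD8-6, 64.3, 60.4 and 66.3 with siBRD8-36, 72.6, 66.5 and 70.0 with siTIP60-2 and 61.4, 67.4 and 62.1 with siTIP60-11, against 84.8, 81.7 and 81.8 with siControl. Every siRNA library was below every control. The fold changes were −0.60 ± 0.06 for BRD8 (adjusted p = 3.15e-06) and −0.35 ± 0.06 for TIP60 (adjusted p = 0.00187). The TIP60 call ended on total counts without TMM, the trimmed-mean scaling used throughout (adjusted p = 0.0949), and neither call passed in TPM. The median gene of SW480 stood at 0.23 for BRD8 and 0.18 for TIP60 in TPM. In HCT116, at 3.99 to 10.6 CPM, it was not called for either target. The gene span of MXD1 shares 7888 bases of chromosome 2 with that of SNRNP27 on the same strand. Reads could be split between them where exons coincide, and overlap of exons was not computed.

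MXD3, a member tied to S phase in mouse neural cells, fell in HCT116. It stood at 8.89, 10.7 and 11.9 CPM with siBRD8-6, 3.89, 6.22 and 4.20 CPM with siBRD8-36, 7.30, 7.81 and 6.39 CPM with siTIP60-2 and 5.48, 7.03 and 7.29 CPM with siTIP60-11, against 14.7, 16.8 and 14.8 CPM with siControl. No library reached the controls. The fold changes were −1.12 ± 0.13 for BRD8 (adjusted p = 0.00791) and −1.16 ± 0.13 for TIP60 (adjusted p = 1.32e-05). The BRD8 siRNAs differed from each other by 1.14 ± 0.16 (adjusted p = 6.75e-06), and the BRD8 call ended without siBRD8-6 replicate 1 (adjusted p = 0.0592) and in TPM (0.0908). In SW480, at 2.45 to 7.05 CPM, neither target was called. MXD3 overlaps RAB24 by 2284 bases on the same strand and PRELID1 by 3186 bases on the opposite strand, and the strand setting of the authors' counting is not given in the sources used here.

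MNT, the most broadly expressed of the MAX-bound repressors, rose with the BRD8 siRNAs in both lines. In HCT116 it stood at 52.7, 53.4 and 49.996 CPM with siBRD8-6 and 38.6, 36.0 and 41.3 CPM with siBRD8-36, against 28.4, 25.1 and 30.5 CPM with siControl, a fold change of 0.68 ± 0.06 (adjusted p = 3.65e-05). In SW480 it stood at 30.2, 34.8 and 36.2 CPM with siBRD8-6 and 44.8, 40.3 and 43.6 CPM with siBRD8-36, against 25.2, 26.4 and 29.2 CPM with siControl, a fold change of 0.44 ± 0.08 (adjusted p = 0.0124). All BRD8 libraries were above the controls in both lines. The siRNA with the larger effect changed with the line, siBRD8-6 over siBRD8-36 by 0.42 ± 0.07 in HCT116 and −0.31 ± 0.08 in SW480 (adjusted p = 2.46e-05 and 0.0019). The SW480 call ended without siControl replicate 1, siControl replicate 2 or siBRD8-6 replicate 3 (adjusted p = 0.0818, 0.053 and 0.0833), and the HCT116 call in TPM (0.145). With TIP60, siTIP60-2 gave 46.9, 49.1 and 49.0 CPM in HCT116 and siTIP60-11 gave 30.4, 31.0 and 32.3 CPM, which overlapped the controls. MNT was therefore not called for TIP60 in HCT116 (0.48 ± 0.06, adjusted p = 0.109), except without siControl replicate 3 (0.0292).

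MLX fell with the TIP60 siRNAs in SW480 and did not pass in HCT116. In SW480 it stood at 39.5, 40.5 and 41.8 CPM with siTIP60-2 and 41.3, 44.5 and 44.6 CPM with siTIP60-11, against 62.6, 69.1 and 62.7 CPM with siControl. The groups were far apart, and the fold change of −0.66 ± 0.06 (adjusted p = 9.79e-08) held in every alternative run. With the BRD8 siRNAs it averaged 53.8 ± 2.2 CPM with siBRD8-6 and 62.0 ± 1.0 CPM with siBRD8-36 (−0.23 ± 0.06, adjusted p = 0.115). In HCT116 all 15 libraries lay between 62.4 and 76.9 CPM. The 3' part of MLX overlaps PSMC3IP on the opposite strand by 925 bases.

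MGA, the Polycomb-linked member, differed between the siRNAs to each target in HCT116. In HCT116 it averaged 87.5 ± 8.7 CPM with siBRD8-36 and 82.5 ± 6.3 with siTIP60-2, but 63.3 ± 3.2 with siBRD8-6 and 59.9 ± 3.0 with siTIP60-11, against 58.8 ± 10.6 in controls. In HCT116 those siRNAs differed by −0.47 ± 0.11 for BRD8 and 0.45 ± 0.11 for TIP60 (adjusted p = 0.00125 and 0.0026). In SW480 the BRD8 siRNAs gave 63.7, 65.4 and 65.4 CPM and 52.8, 58.1 and 73.1 CPM, against 49.7, 49.5 and 46.4 CPM with siControl, a rise of 0.31 ± 0.08 (adjusted p = 0.0321). That call ended without any 1 of the 3 controls (adjusted p = 0.0603, 0.07 and 0.137), without siBRD8-36 replicate 3 (0.375), with DESeq2 (0.0551) and in a fit of only the 9 libraries compared (0.0523). With TIP60 in SW480 MGA averaged 71.2 ± 5.5 CPM with siTIP60-2 and 52.2 ± 0.7 CPM with siTIP60-11. Every TIP60 library there was above every control, but MGA was not called.

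**Figure D3:**
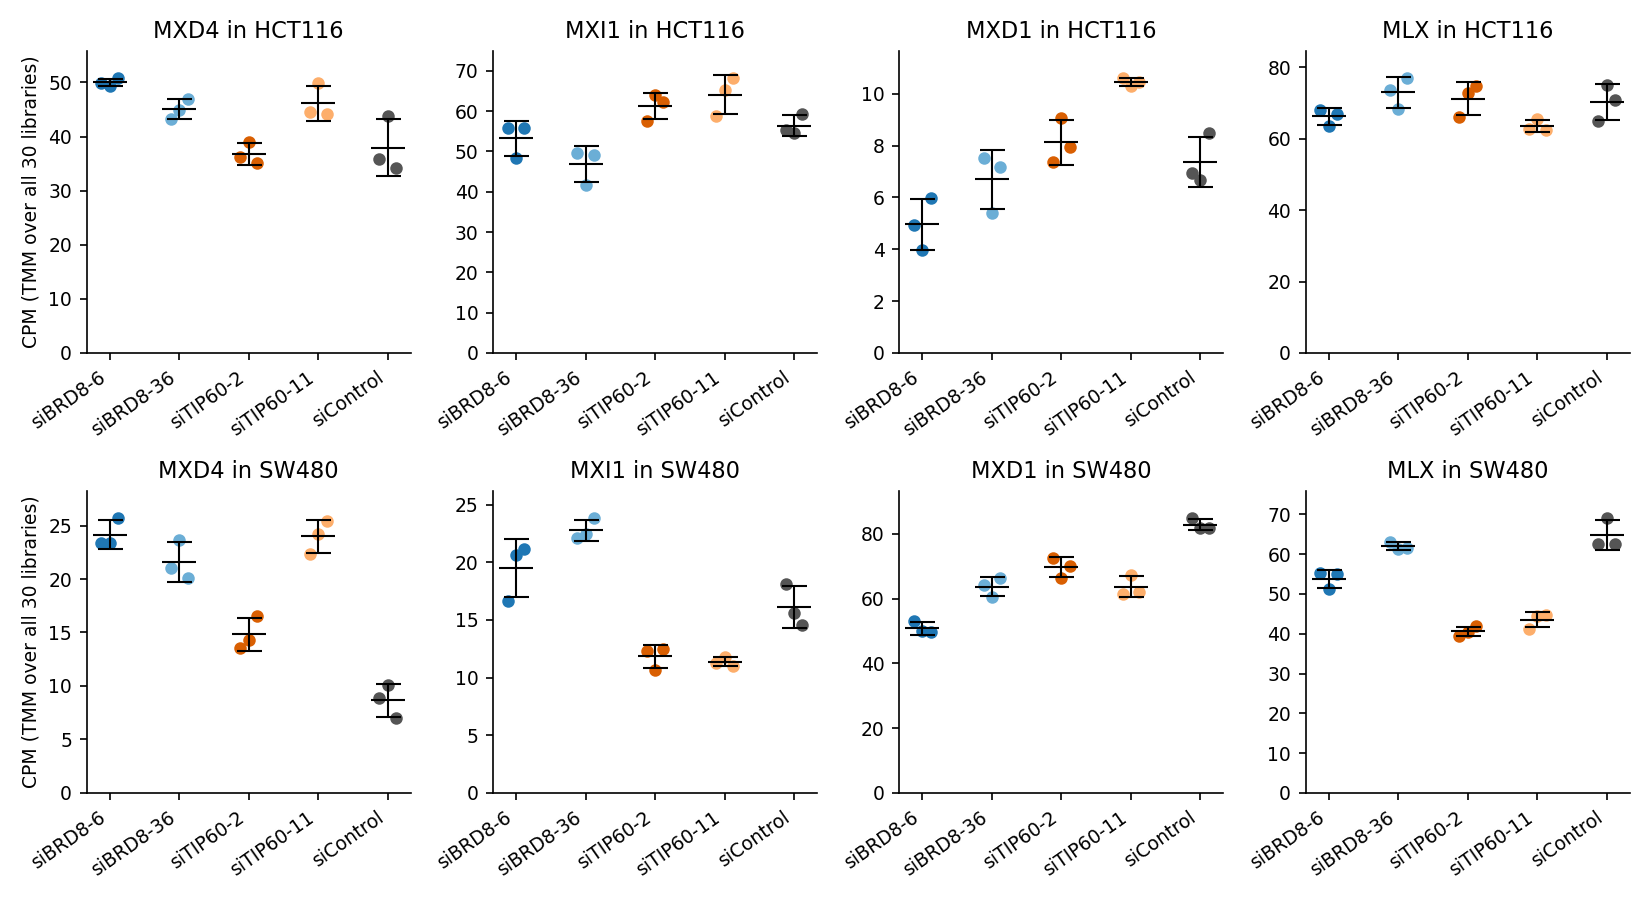
CPM of MXD4, MXI1, MXD1 and MLX by siRNA, HCT116 above and SW480 below, each panel on its own axis from 0. Points are libraries and bars the mean ± SD of 3. In SW480 all siRNA groups lie above control for MXD4 and below it for MXD1, and both TIP60 groups lie lowest for MXI1 and MLX.

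Set against each other in TPM, the members gave the proportions of the network in each group. MYC over MAX was 14.8 ± 1.3 with siTIP60-2 and 11.4 ± 0.3 with siTIP60-11 in HCT116, against 4.44 ± 0.29 in controls, while the BRD8 siRNAs gave 5.19 ± 0.02 and 4.53 ± 0.74. In SW480 it was 5.76 ± 0.26 with siTIP60-2, 4.49 ± 0.29 with siTIP60-11, 2.57 ± 0.26 with siBRD8-6 and 6.55 ± 0.73 with siBRD8-36, against 3.30 ± 0.28 in controls. MYC over the summed TPM of MXD1, MXD3, MXD4, MXI1 and MNT was 3.03 ± 0.05 with siBRD8-6, 3.63 ± 0.24 with siBRD8-36, 8.94 ± 0.75 with siTIP60-2 and 8.43 ± 0.36 with siTIP60-11 in HCT116, against 2.50 ± 0.15 in controls. In SW480 the same ratio was 2.47 ± 0.03, 5.12 ± 0.29, 5.05 ± 0.18 and 4.76 ± 0.24 for those siRNAs, against 3.27 ± 0.23 in controls. The summed repressors themselves were 109 ± 4, 88.8 ± 5.8, 104 ± 7 and 103 ± 4 TPM in HCT116, against 105 ± 13 TPM in controls. In SW480 they were 81.3 ± 6.5, 89.0 ± 6.3, 82.0 ± 3.7 and 77.7 ± 3.5 TPM, against 69.5 ± 4.2 TPM in controls. The median of all SW480 genes in log2(TPM + 1) was also above control, by 0.225, 0.233, 0.252 and 0.116 for those siRNAs. A change of the summed repressors beyond that shift was not tested.

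The makeup of the repressor pool was led by MXI1 in HCT116 and by MXD1 in SW480. MXI1 made up 48.7 ± 2.3% of the summed TPM with siTIP60-2 and 51.2 ± 3.7% with siTIP60-11 in HCT116, against 45.4 ± 2.7% in controls. MXD3 made up 6.15 ± 2.14% to 13.2 ± 2.5% in the siRNA groups of HCT116, against 18.6 ± 1.6% in controls. In SW480 MXD1 made up 34.4 ± 1.0% with siBRD8-6, 39.7 ± 1.2% with siBRD8-36, 49.7 ± 4.5% with siTIP60-2 and 42.9 ± 3.0% with siTIP60-11, against 54.6 ± 1.7% in controls. MXD4 took 21.2 ± 2.6% with siBRD8-6, 18.8 ± 1.5% with siBRD8-36, 12.8 ± 1.3% with siTIP60-2 and 19.7 ± 2.3% with siTIP60-11 there, against 8.69 ± 3.29% in controls. These shares are descriptions of mRNA and were not tested.

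**Figure D4:**
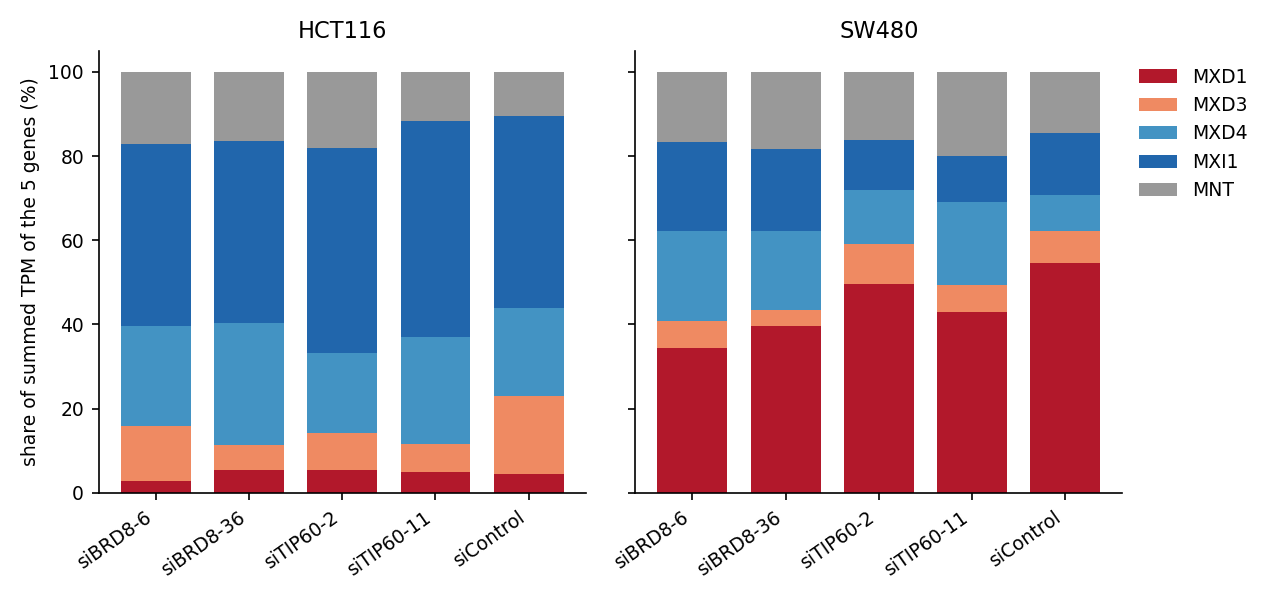
Mean share of each repressor gene in the summed TPM of MXD1, MXD3, MXD4, MXI1 and MNT (percent, n = 3 libraries per bar), by siRNA and line. MXD1 makes up 54.6% in SW480 controls and under 6% in every HCT116 group, where MXI1 leads.

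Setting the BRD8 siRNAs directly against the TIP60 siRNAs, MYC was lower with BRD8 by −1.47 ± 0.04 in HCT116 and −0.46 ± 0.04 in SW480 (adjusted p = 3.92e-15 and 3.05e-11). In this comparison 61.8% of genes passed in HCT116 and 59.9% in SW480, and 5 and 8 of 10 members did. As means over both siRNAs, MXD4 and MNT were higher with BRD8 in both lines, by 0.20 ± 0.06 and 0.21 ± 0.05 in HCT116 and by 0.25 ± 0.08 and 0.24 ± 0.06 in SW480. Single siRNAs did not all follow these means. MNT in HCT116 averaged 38.6 CPM with siBRD8-36 and 48.3 CPM with siTIP60-2. MXD4 averaged 45.0 CPM with siBRD8-36 and 46.2 CPM with siTIP60-11 in HCT116, and 21.6 and 24.0 CPM with the same siRNAs in SW480. MXD1 was lower with BRD8 by −0.67 ± 0.11 in HCT116 and −0.26 ± 0.05 in SW480. In SW480 MXD1 averaged 50.9 CPM with siBRD8-6 and 63.7 with siBRD8-36, against 69.7 with siTIP60-2 and 63.6 with siTIP60-11. MLX was higher with BRD8 in SW480, by 0.43 ± 0.05 (adjusted p = 1.25e-08), and MXD3 was lower there by −0.55 ± 0.15. MXD3 in SW480 averaged 5.06 CPM with siBRD8-6 and 2.81 with siBRD8-36, against 5.98 with siTIP60-2 and 4.98 with siTIP60-11. MAX was lower by −0.10 ± 0.04 in SW480 (adjusted p = 0.0476), a call lost under 17 of 23 alternatives. In SW480 the mean of the BRD8 siRNAs averages opposite movements of MYC.

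A list of 57 genes induced by MYC, mostly of ribosome biogenesis and the cell cycle, was read beside the MYC levels. It was written by hand after the hallmark set of MYC targets, and its membership was not checked against a file of that set. In HCT116, 32 rose and 2 fell with the TIP60 siRNAs, beside 13.7% of genes called higher and 14.1% called lower, with a list median of 0.41 against −0.03 for all genes. With the BRD8 siRNAs 20 rose and 6 fell, beside 12.2% in each direction, with a list median of 0.17 against −0.02. Without HCT116 siControl replicate 2 the counts were 34 and 2 with TIP60 and 25 and 6 with BRD8, and the TIP60 count of 2 became 1 without siControl replicate 3 or siTIP60-11 replicate 2. Among them, UTP20, a processome component of the small ribosomal subunit, averaged 93.4 ± 5.3 CPM with siTIP60-2 and 83.1 ± 4.4 CPM with siTIP60-11, against 38.4 ± 6.0 CPM in controls. PPRC1 (0.83 ± 0.06), GRWD1, a ribosome assembly factor (0.81 ± 0.05), and TCOF1, the treacle protein of ribosomal RNA transcription (0.75 ± 0.05), rose too. The BRD8 siRNAs lowered MCM4 and MCM5, subunits of the replicative helicase, by −1.44 ± 0.05 and −1.08 ± 0.04 in HCT116, while PA2G4 rose by 0.62 ± 0.05.

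In SW480, where MYC rose with TIP60 to a lesser degree, 9 of the 57 rose and 15 fell with the TIP60 siRNAs, beside 11.5% and 12.1% of genes, with a list median of −0.18. GNL3, the nucleolar protein nucleostemin, fell by 0.67 ± 0.05 on the log2 scale and WDR74 by 0.56 ± 0.07, whereas PPRC1 rose by 0.60 ± 0.07. With the BRD8 siRNAs 3 rose and 11 fell, beside 12.9% and 14% of genes, with a list median of −0.11. That count hides a split between the siRNAs. With siBRD8-6 alone 3 genes were higher and 34 lower than in controls, beside 3933 and 4019 of the 15277 genes tested (list median −0.29). With siBRD8-36 alone 22 were higher and 12 lower, beside 4331 and 4348 genes (list median 0.09). Of all genes 52.1% and 56.8% were called in either direction, so a call as such was the common case with either siRNA. Set directly against siBRD8-36, siBRD8-6 had 4 genes of the list higher and 42 lower (list median −0.31). Beside these stood 4120 higher and 3951 lower of all genes, or 52.8% in either direction. Against control, as the mean of both BRD8 siRNAs, PLK1, a mitotic kinase, fell by 0.78 ± 0.06 and UTP20 rose by 0.62 ± 0.07. The count of 3 that rose with both BRD8 siRNAs was 1 without SW480 siControl replicate 1. The direction in SW480 depended on the scaling. In TPM 10 rose and 3 fell with either target, with list medians of 0.16 for BRD8 and 0.04 for TIP60. Of the 15277 genes tested, 3144 rose and 548 fell with BRD8 in TPM, and 2171 rose and 461 fell with TIP60. On total counts without TMM 10 of the list rose and 10 fell with TIP60, beside 2364 and 1285 of all genes. With BRD8 5 of the list rose and 9 fell on total counts, beside 2866 and 1416 of all genes. TPM moved the median of all genes in SW480 to 0.23 for BRD8 and 0.18 for TIP60, and relative to that median the list stood at −0.07 and −0.14, against −0.10 and −0.19 for the same targets with TMM. Tested as an interaction on the mean of both siRNAs, the TIP60 response was higher in HCT116 than in SW480 for 44 genes of the list and lower for 1, beside 13.1% and 18% of genes. The BRD8 response was higher for 23 and lower for 5, beside 12.5% and 21.9%. Its SW480 side averages the siRNAs that split on this list. In TPM the interaction counts were 30 and 3 for TIP60, beside 948 and 4186 of 17411 genes, and 11 and 8 for BRD8, beside 1025 and 4917. The count of 1 ran from 0 to 2 when single libraries were left out. It was 2 without HCT116 siControl replicate 2, and 0 without SW480 siControl replicate 3 or SW480 siTIP60-11 replicate 1.

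**Figure D5:**
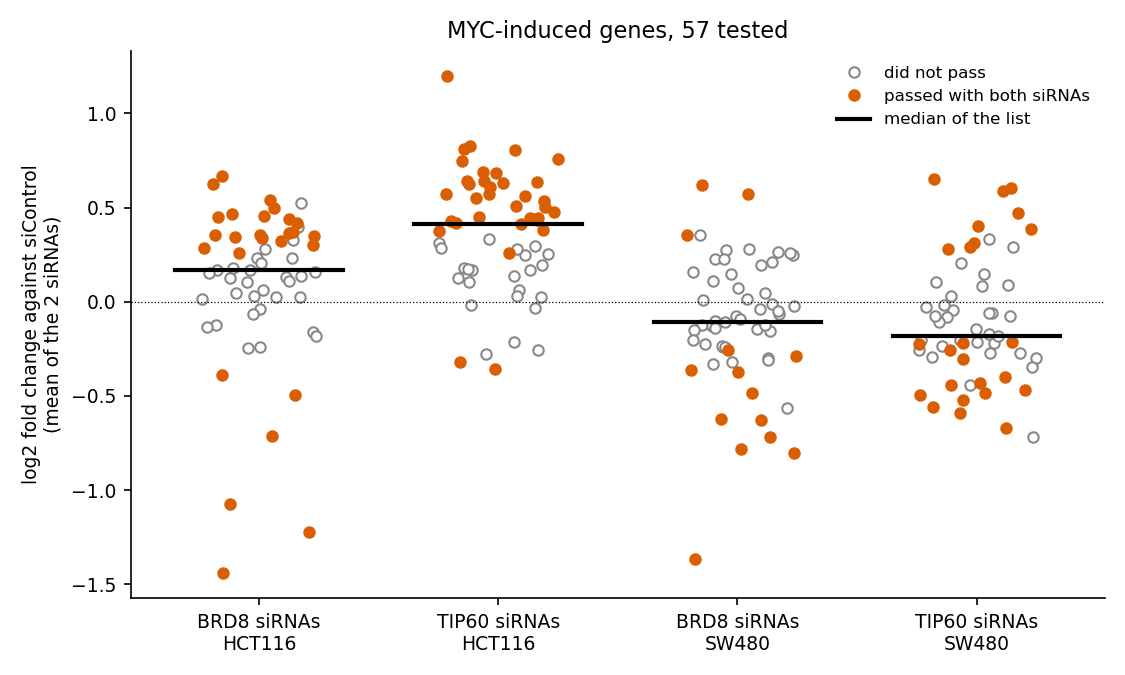
Log2 fold change against siControl, as the mean of both siRNAs, of the 57 MYC-induced genes in each target and line. Filled points passed with both siRNAs and lines mark the list medians of 0.17, 0.41, −0.11 and −0.18 from left to right, on the TMM scaling, with the SW480 medians at 0.16 and 0.04 in TPM.

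Genes that MYC is known to repress did not move as 1 group. Of 7 measured, 2 rose and 2 fell with TIP60 in HCT116, beside 13.7% and 14.1% of all genes, and 1 rose and 3 fell in SW480, beside 11.5% and 12.1%. CDKN2B, which encodes the kinase inhibitor p15, averaged 28.2 ± 0.8 CPM with siTIP60-2 and 28.9 ± 1.6 CPM with siTIP60-11 in HCT116, against 11.2 ± 0.6 CPM in controls (1.36 ± 0.07), and rose by 0.80 ± 0.09 in SW480. CDKN1A, which encodes p21, was at 377 ± 21 CPM with siBRD8-6, 991 ± 72 CPM with siBRD8-36, 799.96 ± 41.12 CPM with siTIP60-2 and 610.3 ± 14.2 CPM with siTIP60-11 in HCT116, against 265 ± 27 CPM in controls. In SW480 CDKN1A had fold changes of −0.03 ± 0.05 for TIP60 and −0.16 ± 0.05 for BRD8, neither of which passed. NDRG1 fell by 0.87 ± 0.04 with TIP60 in HCT116, by 0.66 ± 0.05 in SW480, and by 0.87 ± 0.05 with BRD8 in SW480. With BRD8, 2 of the 7 rose and none fell in HCT116 (CDKN1A and CDKN2B), beside 12.2% in each direction, and none rose and 2 fell in SW480, beside 12.9% and 14%.

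The partner complexes of the repressors were read from lists written by hand. All list counts here and in the next 2 paragraphs stand beside the same shares of all genes, higher and lower: 13.7% and 14.1% with TIP60 in HCT116, 11.5% and 12.1% with TIP60 in SW480, 12.2% and 12.2% with BRD8 in HCT116, and 12.9% and 14% with BRD8 in SW480. Of 17 SIN3 corepressor subunits, 3 rose and 4 fell with TIP60 in HCT116 and none rose and 2 fell in SW480, led by RBBP4, a histone-binding subunit shared with other complexes. RBBP4 averaged 89.3 ± 2.6 CPM with siTIP60-2 and 102 ± 4 CPM with siTIP60-11 in HCT116, against 247 ± 8 CPM in controls (−1.37 ± 0.04), and fell by 1.45 ± 0.06 in SW480. With BRD8, 2 rose and 3 fell in HCT116 and none rose and 1 fell in SW480. Of 9 PRC1.6 partners of MGA, of which CBX3 is also on the MYC-induced list, 2 rose and 3 fell with TIP60 and 1 rose and 2 fell with BRD8 in HCT116, while none rose and 3 fell with TIP60 and 1 rose and 3 fell with BRD8 in SW480. L3MBTL2 rose by 0.53 ± 0.06 with TIP60 and by 0.47 ± 0.06 with BRD8 in HCT116, and E2F6 fell by 0.46 ± 0.05 with BRD8 in HCT116. Without HCT116 siControl replicate 2, the SIN3 counts in HCT116 were 3 and 3 with TIP60 and 4 and 3 with BRD8, and the PRC1.6 counts 2 and 2 with TIP60. The 2 SIN3 genes higher with BRD8 in HCT116 became 1 without siControl replicate 1, siBRD8-6 replicate 1 or 2, siBRD8-36 replicate 3, siTIP60-2 replicate 3, or siTIP60-11 replicate 1 or 2. The SIN3 gene lower with BRD8 in SW480 became 2 without siTIP60-2 replicate 3 or siTIP60-11 replicate 3. Of 12 germline genes that this complex silences in mouse, 1 passed the filter on low counts in HCT116 and 2 in SW480. STK31, a germ cell kinase-like protein, was at 4.40 ± 0.26 CPM with siBRD8-6 and 5.68 ± 0.72 CPM with siBRD8-36 in SW480, against 2.08 ± 0.66 CPM in controls (1.19 ± 0.23).

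Of 4 MLX partners and targets, 3 were tested in HCT116 and 4 in SW480. With BRD8 in HCT116, 2 rose and none fell, the factor MLXIP (0.44 ± 0.08) and the arrestin-like target ARRDC4 (0.58 ± 0.07), and with TIP60 none passed. Without HCT116 siControl replicate 2 or siBRD8-36 replicate 3, 1 fell with BRD8 there. In SW480 ARRDC4 alone rose with each target, by 1.19 ± 0.27 for BRD8 and 1.32 ± 0.26 for TIP60, from low levels of 4.41 to 5.67 CPM as group means, against 2.09 ± 1.53 CPM in controls. Its BRD8 call ended without SW480 siControl replicate 1 or 3. Of 16 tested cofactors and regulators of MYC protein, 5 rose and 1 fell with TIP60 in HCT116 and 4 rose and 3 fell in SW480, and 4 rose and 1 fell with BRD8 in HCT116 and 3 rose and 2 fell in SW480. Several of these counts rest on single libraries. The 5 became 3 without HCT116 siControl replicate 1 or siTIP60-11 replicate 1 or 3, and the 1 lower beside it became 0 without siControl replicate 3 or siTIP60-2 replicate 1. The 4 with TIP60 in SW480 became 2 without siControl replicate 2 or 3 and 1 without siTIP60-11 replicate 2. The 1 lower with BRD8 in HCT116 was 2 without siControl replicate 2. It remained at 1 only without siBRD8-36 replicate 1 or siTIP60-2 replicate 1, and was 0 without any other single library. FBXW7, which targets MYC for degradation, averaged 58.0 ± 2.1 CPM with siBRD8-6 and 76.9 ± 1.3 CPM with siBRD8-36 in HCT116, against 36.9 ± 5.3 CPM in controls (0.85 ± 0.07), and rose by 0.44 ± 0.10 in SW480. AURKA, a mitotic kinase that stabilises MYC proteins, fell in SW480 by 1.39 ± 0.05 with BRD8 and by 0.56 ± 0.05 with TIP60. Subunits shared with the TIP60 complex did not all move one way. EP400 and TRRAP rose with TIP60 in HCT116 by 0.39 ± 0.09 and 0.44 ± 0.10, and EP400 rose by 0.60 ± 0.09 in SW480. RUVBL1 fell with TIP60 in SW480 (−0.35 ± 0.05). With BRD8, ACTL6A fell in SW480 (−0.32 ± 0.05) and RUVBL2 rose in HCT116 (0.33 ± 0.06).

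Around MYC itself, PVT1, the long noncoding RNA gene downstream of it, was at 61.2 ± 3.7 CPM with siTIP60-2 and 79.9 ± 6.1 CPM with siTIP60-11 in HCT116, against 51.2 ± 6.1 CPM in controls (0.46 ± 0.07, adjusted p = 0.0119). With the BRD8 siRNAs it was at 68.0 ± 0.4 and 87.7 ± 4.1 CPM (0.60 ± 0.07). CASC8, a noncoding gene upstream of MYC, was at 6.84 ± 0.90 and 7.81 ± 0.76 CPM with the TIP60 siRNAs in HCT116, against 2.59 ± 0.62 CPM in controls (1.52 ± 0.15). Of 4 neighbours tested in each line, 2 rose and none fell with either target in HCT116. The 2 became 1 for BRD8 without siControl replicate 1 or 3, siBRD8-6 replicate 1, or siBRD8-36 replicate 2 or 3, and for TIP60 without siControl replicate 1 or siTIP60-2 replicate 2. Leaving out single libraries gave up to 3 for TIP60. In SW480, CASC8 alone rose, by 1.04 ± 0.17 with BRD8, and none passed with TIP60, where PVT1 had a fold change of −0.10 ± 0.07.

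The genes whose pattern was most like that of MYC were sought over the 10 group means, as log2 CPM with the mean of each line removed, among 10648 genes with a mean count of at least 50 in each line. The 5 closest were COA7, an assembly factor of the respiratory chain (Pearson r = 0.960), the zinc finger gene ZC3H3 (0.948), the pro-apoptotic gene BIK (0.948), the mitochondrial ribosomal gene MRPL16 (0.945) and the nuclear pore gene NUP93 (0.935). These correlations are descriptions over 10 points that share libraries and 2 sets of controls. COA7, for example, averaged 108 ± 5 CPM with siTIP60-2 and 125 ± 3 CPM with siTIP60-11 in HCT116, against 70.1 ± 4.7 CPM in controls, and 45.5 ± 1.9 CPM with siBRD8-6 and 62.4 ± 3.2 CPM with siBRD8-36 in SW480, against 50.5 ± 3.5 CPM in controls. Among the members, MYCL and MXD3 were the most alike by the same measure (r = 0.757), and MYCL and MAX the most opposed (r = −0.570).

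The estimated transcript length of a member, which shifts when its isoforms change in proportion, was compared between each target and control. The 40 comparisons gave a lowest p of 0.0714 (exact permutation test, two-sided, 6 against 3 libraries), for MYCL with BRD8 in HCT116 at 3297 ± 81 bases with the siRNAs and 3128 ± 165 bases in controls. The lowest adjusted p was 0.799. The smallest p this design allows is 0.0119. MYC averaged 2214 ± 19 bases with the TIP60 siRNAs in HCT116 and 2202 ± 14 bases in controls.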

How the data were processed

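Libraries were prepared with a directional kit from total RNA and sequenced as single reads, per the labels' protocols. The submitters' processing notes list hg38 together with RSEM 1.3.3, STAR 2.7.3a and Trimmomatic 0.33. No source used here gives the strand setting. The deposited tables hold, for each gene and library, the authors' expected count, TPM, and the length and effective length of the gene in bases, weighted over isoforms. Expected counts were rounded to whole numbers.

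Fold changes were fitted with edgeR 4.0.16 (R 4.3.3; filterByExpr at a minimum count of 10, TMM scaling, robust quasi-likelihood) over the 15 libraries of a line, and comparisons between lines over all 30. For a target, the 2 siRNAs were each set against control, the larger p was kept (1 where directions differed) and adjusted by Benjamini-Hochberg over all genes tested; the size is the mean of the 2 contrasts. Comparisons between lines, and of BRD8 with TIP60 siRNAs, tested the mean over both siRNAs of a target and did not require that both agree. DESeq2 1.42.0, limma 3.58.1 on log2(TPM + 1), other scalings and filters, a replicate block and leaving out each library were alternatives. On simulated HCT116 counts the BRD8 comparison recovered known changes that were given to both siRNAs alike. SW480, siRNAs that disagree and comparisons between lines were not simulated. Gene spans and their overlaps, introns included, are from GENCODE 29 (GRCh38), which holds 58444 of the 60617 identifiers, and promoter windows from RefSeq. Depth was 7.07 to 18.6 M counts. SDs and tests carry counting error and spread between libraries.

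The members and lists were chosen with earlier results of these data known, and the lists were written from memory without a source file to check them against. From each list the text names at most 4 genes per comparison, those called with the largest smaller change of the 2 siRNAs; others named were chosen after their values were seen. CCAT1 and USP36 were not matched to an identifier and are not used here. No 2 replicates were identical.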

Additional observations from a re-analysis of the deposited data

Results flagged for a closer look

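The responses of 10 member and target pairs differed by a test of the difference itself between the lines, edgeR's interaction of target and line over all 30 libraries, with adjusted p under 0.05 (differences are the HCT116 response minus the SW480 response, log2 ± SE). The test took the mean of both siRNAs of a target and did not require both to move the same way. Some means averaged siRNAs on opposite sides of control. For example, MXD4 in HCT116 averaged 36.8 CPM with siTIP60-2 and 46.2 with siTIP60-11, against 38.0 in controls. MAX in SW480 averaged 73.1 CPM with siBRD8-6 and 64.5 with siBRD8-36, against 69.5 in controls. The values quoted for each line come from the fits within that line, so that their difference need not equal the value of the joint fit. The pairs that passed are 3 for BRD8 and 7 for TIP60 of 10 members each, beside 34.4% and 31.1% of 17411 genes, whose median differences were −0.10 and −0.06.

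For TIP60, MYC differed by 1.16 ± 0.07, with a rise in each line that was larger in HCT116. MXD3 differed by −1.0003 ± 0.23 (adjusted p = 0.000825), with −1.16 ± 0.13 in HCT116 and −0.20 ± 0.18 in SW480. MXD4 differed by −0.99 ± 0.14 (7.67e-07), with 0.13 ± 0.07 in HCT116 and 1.09 ± 0.12 in SW480. MXD1 differed by 0.63 ± 0.12 (0.000111), with 0.33 ± 0.13 in HCT116 and −0.35 ± 0.06 in SW480. MXI1 differed by 0.63 ± 0.13 (0.000189), with 0.16 ± 0.07 in HCT116 and −0.51 ± 0.10 in SW480. MLX differed by 0.56 ± 0.08 (8.53e-07), with −0.05 ± 0.06 in HCT116 and −0.66 ± 0.06 in SW480. MAX differed by 0.28 ± 0.08 (0.00956), with 0.34 ± 0.06 in HCT116 and 0.02 ± 0.06 in SW480, and no longer passed on total counts (0.0649) or in TPM (0.597). MXD1 and MXI1 did not pass in TPM (0.464 and 0.208), where the median gene differed by −0.18.

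For BRD8, MXD4 differed by −1.07 ± 0.14 (1.32e-07), with 0.33 ± 0.07 in HCT116 and 1.33 ± 0.11 in SW480. MXI1 differed by −0.56 ± 0.12 (0.000322), with −0.17 ± 0.07 in HCT116 and 0.33 ± 0.10 in SW480. MAX differed by 0.28 ± 0.08 (0.00708), with 0.27 ± 0.06 in HCT116 and −0.08 ± 0.06 in SW480, and did not pass in TPM (0.429). SW480 control libraries were the shallowest, and the part of depth in these differences was not tested.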

How the results depend on the processing

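In SW480 TPM moved the median gene to 0.23 for BRD8 and 0.18 for TIP60. The largest departures came from limma on log2(TPM + 1), where the cause was not tested. There BRD8 in HCT116 gave 2375 genes (3891 with the edgeR fit) and 2 members, TIP60 in HCT116 2764 genes (4436), BRD8 against TIP60 3 members in HCT116 and 5 in SW480, and TIP60 in SW480 3 members. 5 member values changed sign in TPM: MXD1, siTIP60-2 against siTIP60-11 in HCT116 (0.18); MAX, siBRD8-36 against control in SW480 (0.0181); MXD1, siTIP60-2 against control in SW480 (0.10); MYC, siTIP60-2 against siTIP60-11 in SW480 (0.16); and MYC, HCT116 against SW480 controls (0.20). MYC-induced genes in SW480 gave 10 higher and 3 lower with BRD8 and 3 lower with TIP60 in TPM, and 5 higher with BRD8 on total counts. The counts of all genes under the same settings are given with that list above. The interaction count of 1 lower with TIP60 was 3 on total counts, 3 in TPM and 0 with no filter. Of all genes, 3997 and 4186 of 17411 were lower in the first 2 settings and 2388 of 37518 with no filter. Members called for the BRD8 interaction were 3 in the edgeR fit, 5 with DESeq2, 6 with DESeq2's size factors, 5 with no filter and 6 with the stricter filter of 2 CPM in 3 libraries.

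Leaving out 1 library gave 2 to 5 members for BRD8 in SW480 and 3 to 6 for the BRD8 interaction, 1 to 3 MYC-induced genes higher with BRD8 in SW480, 1 to 2 lower with TIP60 in HCT116 and 0 to 2 lower in the TIP60 interaction. Replicate numbers were not taken to pair the libraries, since same-numbered libraries did not all correlate above 0.1 (−0.048 to 0.128 in HCT116, −0.108 to 0.131 in SW480). In HCT116, as a hint from the data, 27 of 30 same-numbered pairs were positive, against 22 of 60 others, and 12 of 15 libraries correlated best with their own number. In SW480 the counts were 12 of 30, 31 of 60 and 3 of 15. With the replicate block, 207 of 210 member results kept their side of the threshold, and every count stayed within 1.5 times. Depth limits MXD3 most, with 82 counts over the 3 siBRD8-36 libraries of SW480.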
